A study of Mus musculus with 12 samples.

Results

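Immunoprecipitated RNA was compared with the RNA left in the supernatant in control cells of MPC5, a mouse podocyte line made conditionally immortal. By group label this takes 6 of the 12 samples in the series: the immunoprecipitated fraction (IP, labelled with Cy5) and the supernatant (Sup, labelled with Cy3) of 3 replicates, which the labels call biological. Each replicate had both fractions on 1 array, so 3 of the 6 arrays were used. By the start of the probe name, 60691 of the 60891 probes printed on an array stand for transcripts.

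Control cells received a non-targeting siRNA (siNC) and the comparison cells an siRNA against METTL3. All cells, controls included, were kept in 30 mmol/L glucose for 24 h, so no array shows podocytes at normal glucose. Per the labels, IP and Sup RNA were amplified as cRNA before labelling. The sample name in the title of control replicate 3 has another prefix than the names of control replicates 1 and 2, and the labels do not say what the prefix means. No named probe measured any of the 10 podocyte markers listed, such as Nphs1 or Synpo, or Mettl3 itself, so neither the cell type nor the knockdown could be checked.

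METTL3 is the catalytic subunit of the complex that writes N6-methyladenosine (m6A), the most abundant internal modification of messenger RNA. Antibodies to m6A pull methylated RNA out of total RNA, and reader and eraser proteins act on the same mark to set the stability and translation of the transcript. The labels do not name the antibody. The array format is sold for m6A, and IP is read here as m6A-enriched RNA. The measure throughout is log2(IP/Sup) of a probe on an array, less the median of that array over the tested probes. A value of 0 is thus the median probe of the array and not equal amounts of methylated and unmethylated RNA, and about equal numbers of probes lie on each side of 0 by construction. Cy5 was IP on every array. Dye bias and enrichment in IP therefore cannot be told apart, either in the ratio of a single probe or in medians and counts over probes.

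Far fewer probes gave a usable signal in IP than in Sup. A probe counted as well above background where the scanner software marked at least 0.5 of its spots so. On control arrays 1, 2 and 3 this held for 45.4%, 37.6% and 42.5% of transcript probes in IP and for 79.3%, 76.1% and 80.9% in Sup. IP was lower than Sup on each array, and array 2 was the lowest in both. Probes seen in Sup and not in IP made up 34.0%, 38.9% and 38.4% of the arrays, or 37.1 ± 2.72% (SD, n = 3), whereas probes seen in IP and not in Sup made up 0.0758%, 0.382% and 0.0280%. The knockdown arrays had 31.3 ± 6.49% of probes in Sup alone (SD, n = 3), and the difference had p = 0.2 in a two-sided exact permutation test, where 0.1 is the smallest p that 3 arrays in each group allow. Over all 3 control arrays, 16277 probes (26.8%) were seen in Sup and never in IP, 3 probes in IP and never in Sup, and 10356 (17.1%) in neither. The ratio of those probes has at most a bound. IP was also the dimmer channel: the median background-subtracted signal of the control arrays averaged 6.36 ± 1.45 in IP and 21.9 ± 2.06 in Sup (SD, n = 3). The part of dye and channel brightness in these counts was not tested. A probe seen in Sup alone is therefore not read as depleted from IP.

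The ratio was tested for the 24589 probes (40.5%) that were well above background in both fractions on at least 2 control arrays. The 8762 probes (35.6%) that differed from their array median at an adjusted p under 0.05 (limma, Benjamini-Hochberg) comprised 3739 higher in IP (15.2%) and 5023 lower (20.4%). Low ratios reached further from the median than high ones. Among probes called with a mean ratio past 1 on the log2 scale, which is a 2-fold difference from the median probe, 1221 were higher in IP (4.97%) and 2678 lower (10.9%). The 5th and 95th percentiles of the mean ratio were -1.43 and 1.00, and its extremes were -3.63 and 3.24. The lower arm was the longer one on each array: the 5th percentile was -1.53, -1.77 and -1.30 on control arrays 1, 2 and 3, and the 95th lay between 1.06 and 1.13.

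The split into higher and lower calls depends on where the median is put and on the background correction. Centred on the spike-in probes, the counts were 8720 higher and 2597 lower, so the majority turned. With normexp background correction, 172 probes were called past 1 and 1726 below -1, with loess added 126 and 1279, and before dye normalization 2706 and 2705.

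**Figure D1:**
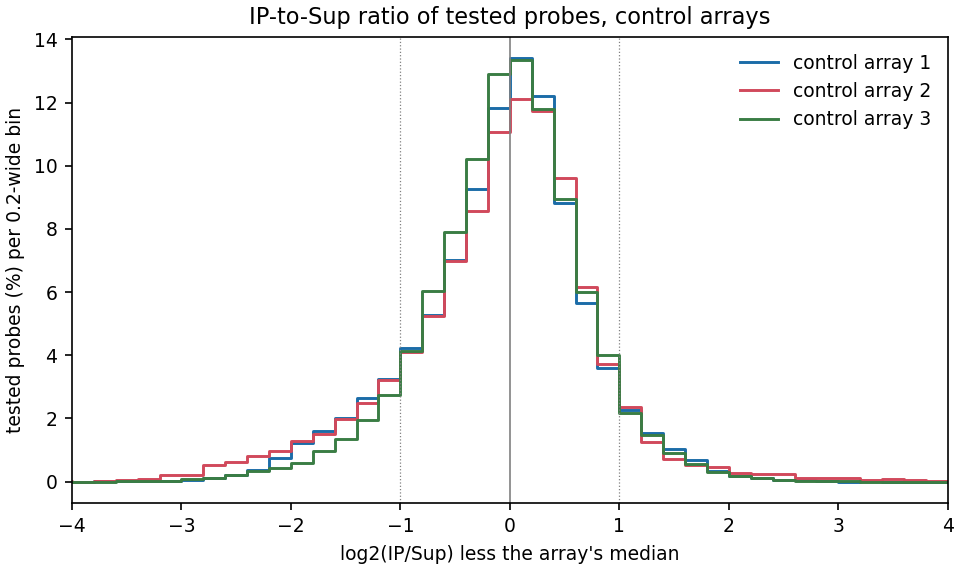
Distribution of the centred log2(IP/Sup) (x axis) over tested probes on each of the 3 control arrays, as percent of probes per bin (y axis). The SD over probes was 0.78, 0.90 and 0.72 on arrays 1, 2 and 3, and the arm below 0 reaches further than the arm above it on each array.

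The ratio spread over a narrow range beside the levels. Within an array, log2 signals in IP and Sup correlated at 0.947 to 0.955 (Pearson) over the tested probes, which share the array and its normalization. On the control arrays the SD of the ratio over probes averaged 0.80 ± 0.089, and on the knockdown arrays 0.76 ± 0.049 (SD, n = 3), with p = 0.6 in the exact permutation test. The interquartile range was 0.89, 0.97 and 0.84 on the control arrays. Against that range, a probe varied between the 3 control arrays with a median SD of 0.28, and the median half-width of its 95% interval was 0.42. The smallest mean ratio that was called was 0.47 in size.

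Control array 2 stood apart from the other control arrays. The ratio of a probe on arrays 1 and 3 correlated at 0.826 over 22595 probes, with a median difference of 0.25, and 80.8% of probes lay on the same side of 0. Arrays 1 and 2 correlated at 0.754 and arrays 2 and 3 at 0.700, with median differences of 0.35 and 0.37. Per the file headers, array 2 was scanned apart from the other 5 arrays. It also had the fewest probes above background in IP and the most spots left out as outliers (1778, against 1453 and 1132); the part of these values in the result was not tested. Of the 22811 probes with values on all 3 control arrays, 15086 (66.1%) lay on 1 side of the array median each time, 7597 above (33.3%) and 7489 below (32.8%). Without control replicate 2, 8621 probes were called, without replicate 1 4364 and without replicate 3 6311.

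The same probes were high and low in the knockdown arrays. Fitted on its own, the knockdown group called 13311 of 24582 probes (54.1%; 25.4% higher in IP and 28.7% lower). Of the 8762 control calls, 8198 were called there in the same direction, which is 93.6% of the control calls and 61.6% of the knockdown calls, and 2 were called in the opposite direction. Of the 3899 control calls past 1, 3893 (99.8%) had a knockdown mean of the same sign. Over 24582 probes the group means correlated at 0.939, with a slope of 0.94 of knockdown on control. These probes share the array design, the fixed dye of each fraction and the processing, all of which would repeat on the knockdown arrays.

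Single arrays gave the same picture. The 9 pairs of a control with a knockdown array correlated at 0.747 to 0.890 and the 3 pairs of knockdown arrays at 0.862 to 0.887, against 0.700 to 0.826 for the 3 control pairs. These ranges are not like for like, since control array 2 weighs more among the control pairs. Its control pairs were at 0.700 and 0.754 and its knockdown pairs at 0.747 to 0.786. Control arrays 1 and 3 were at 0.826 with each other and at 0.813 to 0.890 with knockdown arrays. No probe differed between control and knockdown at an adjusted p under 0.05 (0%; limma, smallest adjusted p = 0.999). Without adjustment 677 probes (2.75%) had a p under 0.05, of which 384 were higher in control and 293 lower. That is fewer than the share of 0.05 that this threshold would pass on average if no probe differed. For a typical probe, the 95% interval reached 0.50 (median) to either side of its difference, with no allowance for the number of probes tested. None of the 677 probes was called after adjustment, so differences larger than 0.50 could also have been missed.

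**Figure D2:**
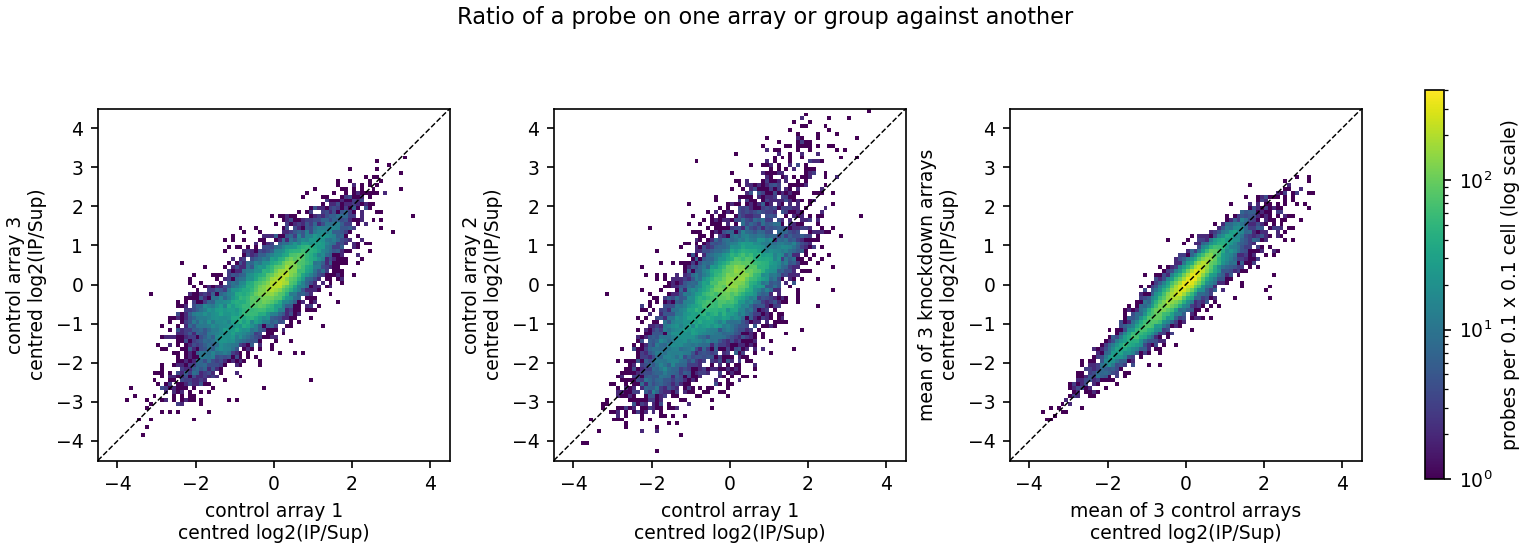
Centred log2(IP/Sup) of each probe on one array or group (x axis) against another (y axis), with colour for the number of probes per cell on a log scale. Control arrays 1 and 3 (r = 0.826) lie closer to the diagonal than arrays 1 and 2 (r = 0.754). The control and knockdown means (r = 0.939) average 3 arrays each, which lowers array noise, so that r cannot be ranked against those of single arrays.

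The ratio changed with signal level at both ends of the range. When tested probes were ordered by the mean of their IP and Sup log2 signals, the dimmest decile had a median ratio of 0.26 (0.35, 0.16 and 0.34 on control arrays 1, 2 and 3), and the brightest decile of -0.10 (-0.13, -0.14 and -0.05). Before dye normalization the dimmest decile was at 0.046, with 0.18, -0.15 and 0.16 on control arrays 1, 2 and 3. After it, each end kept its side of 0 on all 3 arrays. In the dimmest decile 29.8% of probes were called higher in IP and 3.01% lower, in the brightest 4.76% and 18.5%. Dim probes were also the least repeatable, with a median SD between arrays of 0.48, against 0.20 in the brightest decile.

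High and low calls past 1 therefore came from different levels. Those higher in IP had a median level (mean of IP and Sup log2 signals) of 7.04, and 446 of the 1221 (36.5%) lay in the dimmest decile. Those lower in IP had a median level of 9.10, and 25 of the 2678 (0.934%) lay there. The median IP signals were closer, 7.73 for high and 8.40 for low calls, than the median Sup signals, 6.31 and 9.79. Sup is the denominator of the ratio, so a gap in Sup between high and low calls is partly built in. A dim probe could enter the test only with IP above background. The part of this filter in the excess of high calls among dim probes was not tested. The dye normalization of the scanner software also acted by level: before it, the brightest decile had a median ratio of 1.06, and array medians of 0.71, 1.504 and 0.79.

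**Figure D3:**
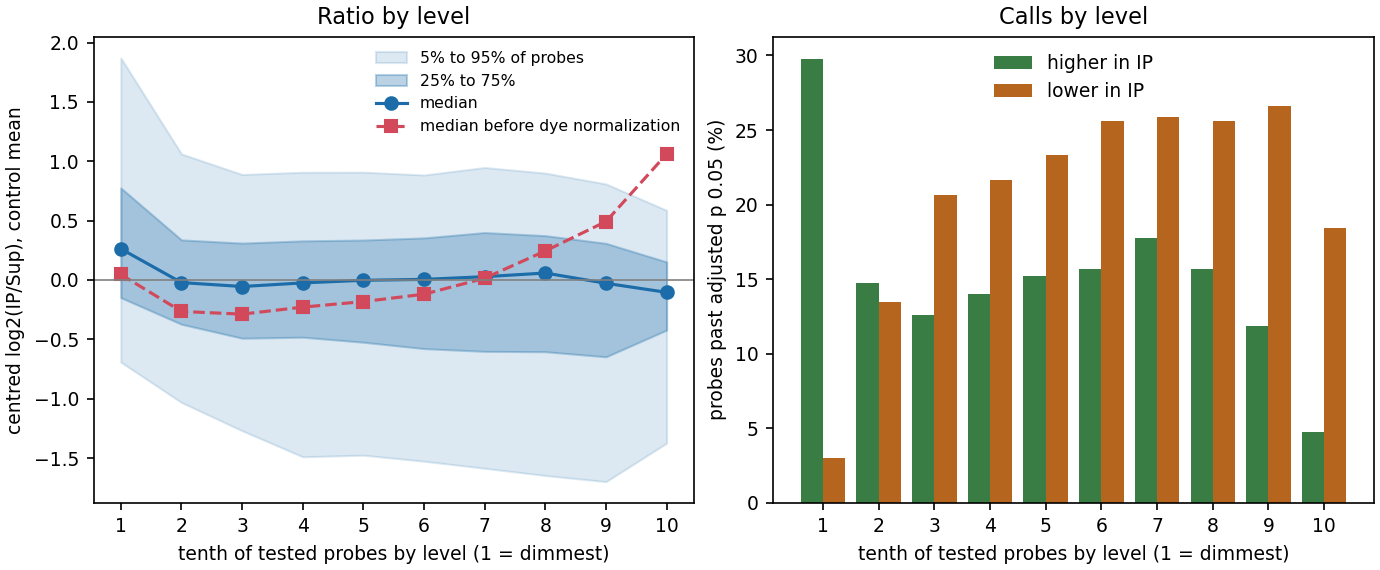
Left, centred log2(IP/Sup) averaged over control arrays (y axis) by decile of tested probes from dimmest to brightest (x axis), with the median before dye normalization as squares; right, percent of each decile called higher or lower in IP. The median falls from 0.26 in the dimmest to -0.10 in the brightest decile after dye normalization and rises to 1.06 in the brightest before it.

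The serial probe families differed little in their median ratio, and among them EP3A had the largest share of calls past 1 in both directions. The names give 4 families, EP3A with 48057 probes, EP3B with 8497, SM with 4087 and 50 Agilent catalogue probes, and no source used here gives the RNA class of the first 3. The share tested was 41.8% in EP3A, 32.6% in EP3B and 41.9% in SM. Median ratios on control arrays 1, 2 and 3 were -0.02, -0.02 and -0.03 for EP3A, 0.05, 0.07 and 0.05 for EP3B, and 0.13, 0.09 and 0.21 for SM. The order SM, EP3B, EP3A was the same on each array.

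Less the EP3A median of the same array, EP3B was higher by 0.08 ± 0.015 and SM by 0.16 ± 0.063 (SD, n = 3). The exact two-sided sign-flip test gave p = 0.25 for each, the smallest that 3 arrays allow. On the knockdown arrays the means were 0.08 and 0.23. The catalogue probes lay 0.05 below EP3A on average, with array 1 above EP3A and arrays 2 and 3 below it (exact sign-flip test, p = 0.5). EP3A had the largest share of calls of the serial families, 36.9%, then EP3B with 31.3% and SM with 27.9%. Higher calls past 1 made up 5.25% of EP3A, 4.37% of EP3B and 2.57% of SM, and lower calls past 1 made up 11.4%, 8.59% and 9.29%.

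**Figure D4:**
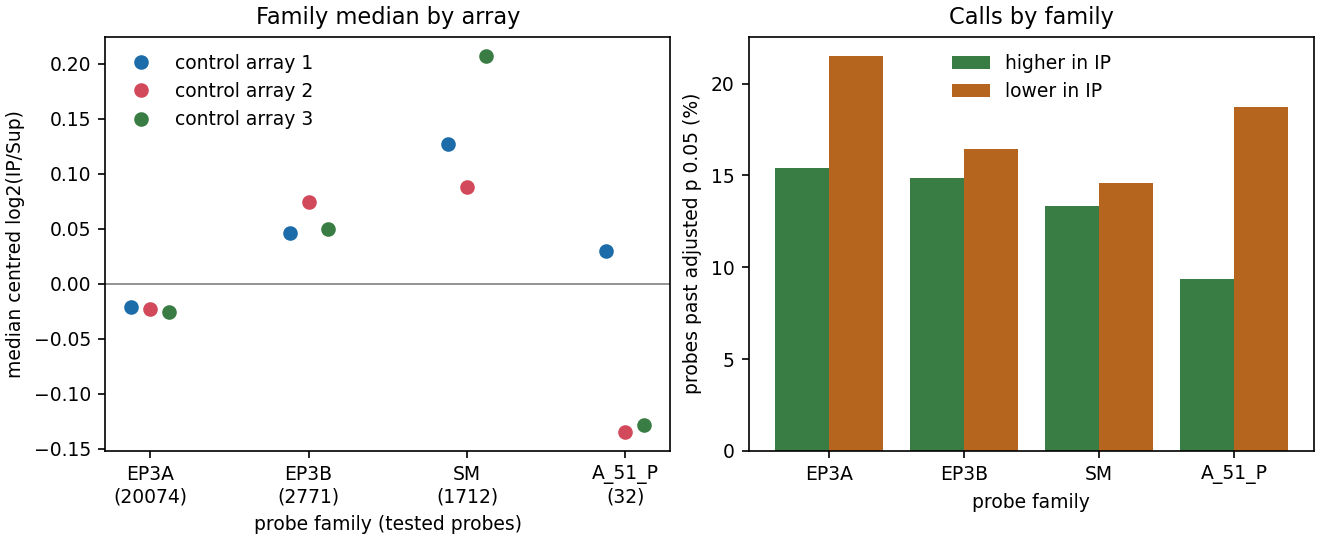
Left, median centred log2(IP/Sup) of each probe family (y axis) on each array, with the number of tested probes under the family name; right, percent of tested probes called higher or lower in IP in control cells. The SM median is highest on each control array (0.13, 0.09 and 0.21), and EP3A has the largest share of calls among the serial families.

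Among unnamed probes called and seen in both fractions on all 3 control arrays, the 2 highest and 2 lowest mean ratios belonged to EP3A probes, for which no gene is named in the files. The lowest SM probe, at -3.57, did not meet that condition. The probe ASMM10EP3A112545444 had ratios of -3.31, -3.77 and -3.82 on control arrays 1, 2 and 3, a mean of -3.63 ± 0.28 (SD, n = 3), which is 12.4-fold below the median probe (limma, adjusted p = 0.000846). ASMM10EP3A110640937 had -3.21, -3.10 and -3.62, a mean of -3.31. On the knockdown arrays these means were -3.25 and -3.32. Both low probes were bright in Sup, with log2 signals between 10.63 and 13.62, and repeated closely.

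The highest ratios repeated less well. ASMM10EP3A114987620 had 3.50, 4.43 and 1.77, a mean of 3.24 ± 1.35 (SD, n = 3), and ASMM10EP3A100045727 had 2.57, 4.25 and 2.77, a mean of 3.20 ± 0.92 (SD, n = 3). Their Sup signals were dim, between 2.67 and 5.04 on the log2 scale, and dimmest on array 2, where both ratios were highest. The adjusted p was 0.00351 and 0.00171 (limma).

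Genes could be named for 45 of the 50 catalogue probes, each printed in 10 spots, and 31 of them were tested. Of those, 9 were called (29.0%, against 35.6% of all tested probes), 3 higher in IP (9.68%) and 6 lower (19.4%). Their median ratio was -0.14, against 0.00 over all tested probes, with 14 means above 0 and 17 below. On all 3 arrays, 21 of the 31 (67.7%) lay on 1 side of 0. All 9 called genes had the same sign on all 3 knockdown arrays. The spots of a gene within an array had a median SD of 0.13, and its arrays a median SD of 0.21.

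**Figure D5:**
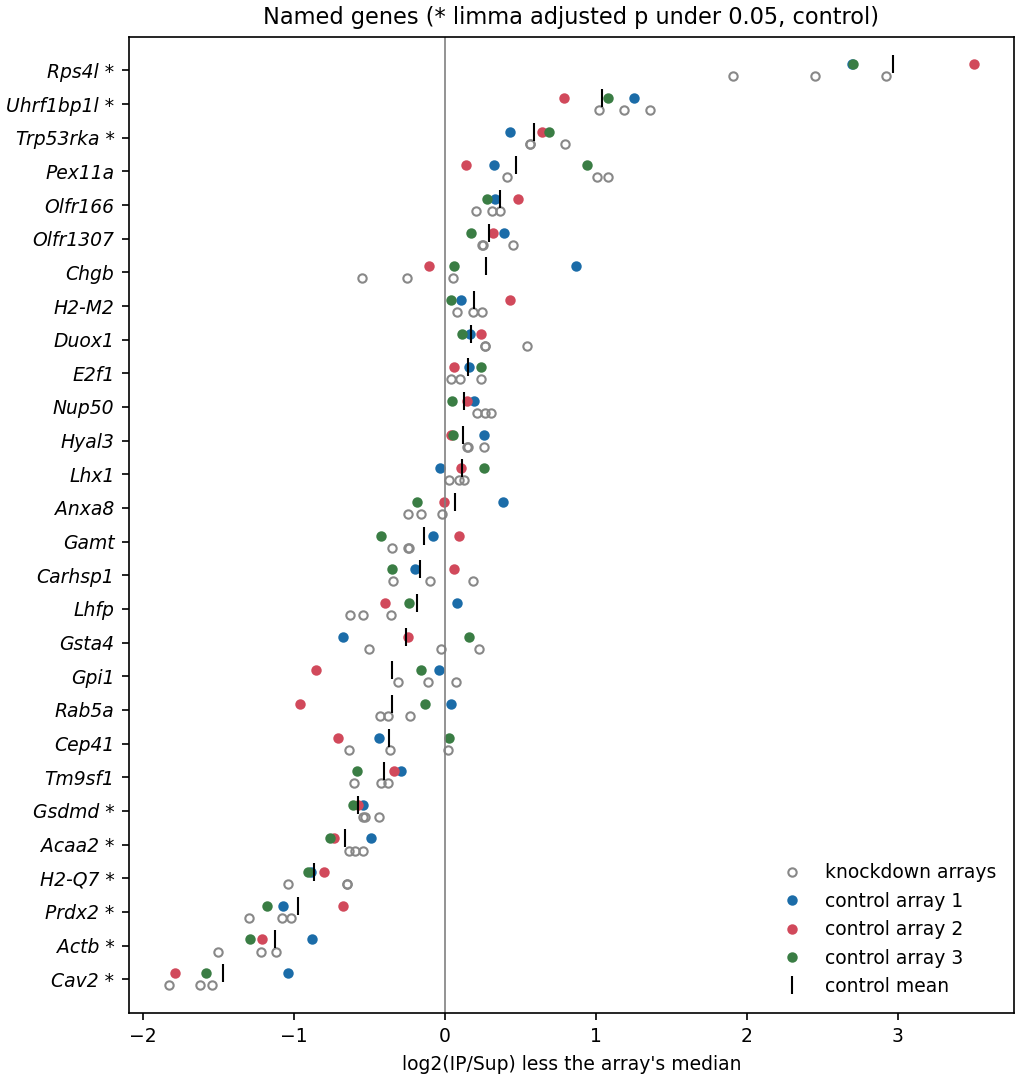
Centred log2(IP/Sup) (x axis) of named genes (y axis) seen in both fractions on all 3 control arrays, and of Rps4l, 1 point per control and knockdown array, with a star for an adjusted p under 0.05 in control cells. Rps4l stands alone at 2.97 on the high side, and Cav2, Actb, Prdx2, H2-Q7, Acaa2 and Gsdmd lie below 0 on every control array.

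Rps4l, annotated as a transcribed pseudogene of the ribosomal protein S4 family, had the highest ratio among named genes (probe A_51_P406105). Its log2 signals on control arrays 1, 2 and 3 were 6.72, 6.26 and 7.22 in IP and 3.89, 2.70 and 4.43 in Sup, so that IP exceeded Sup on each array with no overlap. The ratios were 2.70, 3.50 and 2.70, a mean of 2.97 ± 0.46 (SD, n = 3), with a 95% interval from 2.47 to 3.46 (limma, adjusted p = 0.000892). This is 7.82-fold above the median probe of all levels. Rps4l lay in the dimmest decile of probes, where high calls were most frequent and arrays varied most.

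The knockdown mean of Rps4l was 2.43. Its Sup signal was well above background on only 2 of the 3 control arrays. Without array 1, where it was not, the mean was 3.10. With normexp background correction it fell to 0.85, and to 0.43 with loess added, both still called. Transcripts of near-identical family members such as Rps4x could share the signal of this probe.

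Uhrf1bp1l, a lipid transfer protein of the bridge-like family, was also higher in IP (A_51_P274635). Its log2 signals were 10.69, 9.10 and 10.38 in IP and 9.32, 8.25 and 9.21 in Sup. IP was above Sup on each array, although both fractions were lowest on array 2. Its ratios were 1.25, 0.79 and 1.08, a mean of 1.04 ± 0.23 (SD, n = 3; limma, adjusted p = 0.00542), or 2.06-fold above the median probe, and 1.19 in knockdown. It remained called with normexp, at 0.41, and with loess added, at 0.63.

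Trp53rka, a kinase of the KEOPS complex that takes part in transfer RNA modification, was called with ratios of 0.43, 0.64 and 0.69 and a mean of 0.59 ± 0.14 (SD, n = 3; limma, adjusted p = 0.0269). All 3 values lay above 0, and the knockdown mean was 0.64. The call was lost without control replicate 1 (limma, adjusted p = 0.102) and without replicate 3 (0.139), and with normexp the ratio was 0.17 (adjusted p = 0.172). It was not called either with no filter at 0.62 or before dye normalization at 0.49. The mouse genome has a near-identical copy, Trp53rkb, which could share the signal.

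Cav2 and Actb were both called lower in IP. Cav2, which encodes caveolin 2 of the plasma membrane caveolae, had the lowest ratio among named genes (A_51_P279552). Its log2 signals were 8.87, 6.68 and 8.74 in IP and 9.78, 8.41 and 10.24 in Sup, with Sup the higher on each array. The ratios were -1.04, -1.79 and -1.59, a mean of -1.47 ± 0.39 (SD, n = 3), with a 95% interval from -1.93 to -1.01 (limma, adjusted p = 0.00315). The median probe was thus 2.77-fold above Cav2, and the knockdown mean was -1.66. With normexp and loess its ratio was -0.94, still called.

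Actb, cytoplasmic beta-actin (A_51_P173760), had log2 signals of 13.68, 12.43 and 14.01 in IP and 14.43, 13.58 and 15.21 in Sup. Its ratios were -0.88, -1.21 and -1.29, a mean of -1.13 ± 0.22 (SD, n = 3; limma, adjusted p = 0.00414), and -1.28 in knockdown. Each array was below 0, yet the value depended on the dye normalization. Before that step the ratio was -0.07 (limma, adjusted p = 0.815). Actb lay in the brightest decile of probes.

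Of the 8 genes listed for actin, membrane and caveolae, 4 had a named probe and all 4 were tested, with 2 lower in IP, none higher and a median ratio of -0.66. Of all tested probes, 20.4% were called lower and 15.2% higher, and their median was 0.00, so counts over lists this short are descriptions only. The other two members were not called. Anxa8, a calcium-dependent membrane-binding annexin, had 0.39, 0.00 and -0.18. Lhfp, a tetraspan membrane protein, had 0.08, -0.40 and -0.24 and was called with normexp at -0.43. Both had arrays on each side of 0, and before dye normalization Anxa8 was at 0.93 (limma, adjusted p = 0.0154).

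Among genes of oxidant handling, the peroxide remover was lower in IP and the peroxide maker was not called. Prdx2, a peroxiredoxin that reduces hydrogen peroxide, had ratios of -1.07, -0.67 and -1.18, a mean of -0.98 ± 0.27 (SD, n = 3; limma, adjusted p = 0.00709), and -1.13 in knockdown. Duox1, a membrane oxidase that makes hydrogen peroxide, had 0.17, 0.24 and 0.11 (limma, adjusted p = 0.407). All Prdx2 values lay below all Duox1 values, but the genes were not tested against each other. Before dye normalization Prdx2 was at -0.09 (limma, adjusted p = 0.820). These were the 2 tested of 8 listed, 1 lower and none higher, with a median of -0.40, beside 20.4% lower and 15.2% higher among all tested probes. With either fraction above background Prdx2 was at -0.73 and with normexp at -0.72, neither called.

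Metabolic genes gave 1 call, lower in IP, among 3 tested of 12 listed, with a median ratio of -0.35; 20.4% of all tested probes were called lower. Acaa2, the mitochondrial thiolase of the last step of fatty acid oxidation, had ratios of -0.49, -0.74 and -0.76, a mean of -0.66 ± 0.15 (SD, n = 3; limma, adjusted p = 0.0186), and -0.59 in knockdown. The call was lost without control replicate 1 (limma, adjusted p = 0.0735) and without replicate 3 (0.0949), and with spike-in centring the ratio was -0.27 (0.352). It was not called either with no filter at -0.63, with either fraction above background at -0.42 or before dye normalization at -0.39. Gpi1, the glycolytic isomerase of glucose 6-phosphate, had -0.04, -0.85 and -0.16, with array 2 far below the others, and was at 0.71 before dye normalization (limma, adjusted p = 0.0256).

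Pex11a, a membrane protein of peroxisome division, had 0.32, 0.14 and 0.94 and missed the threshold (limma, adjusted p = 0.112). It passed with array weights at 0.55, with normexp at 0.72, centred on spike-in probes at 0.86 and before dye normalization at 1.43. Its log2 signal was 13.26, 15.36 and 14.40 in IP and 12.81, 15.16 and 13.37 in Sup. Both were highest on array 2, where most tested named genes had their lowest IP signal, Olfr166 being another exception, and the ratio of Pex11a was lowest there.

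Glycolytic enzymes also appear among the control-type spots, which were kept out of the test. The Gapdh spots named 3 and 5 had mean ratios of -1.73 ± 0.39 and -0.96 ± 0.10, and the Pgk1 spots -0.93 ± 0.02 and -1.09 ± 0.07 (SD, n = 3). Each was below 0 on every control array, with p = 0.25 in the exact sign-flip test, the smallest that 3 arrays allow. These ratios are after dye normalization, and the part of that step in them was not tested.

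Gsdmd, the pore-forming protein of pyroptosis, had the most repeatable ratio of the called genes, -0.55, -0.58 and -0.61, a mean of -0.58 ± 0.03 (SD, n = 3; limma, adjusted p = 0.0253). The knockdown mean was -0.50. The call was lost without control replicate 1 (limma, adjusted p = 0.135) and without replicate 3 (0.121), and before dye normalization the ratio was 0.05 (0.885). It was not called either with no filter at -0.55, with normexp at -0.52, with either fraction above background at -0.33 or centred on spike-in probes at -0.18. It was the 1 gene tested of 8 listed for cell death and autophagy. Atg3, an autophagy conjugation enzyme, was seen in Sup on all 3 arrays and in IP on none.

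The class I histocompatibility genes lay on different sides of 0. H2-Q7, a non-classical class I gene, had -0.89, -0.80 and -0.91, a mean of -0.87 ± 0.06 (SD, n = 3; limma, adjusted p = 0.00686), and -0.78 in knockdown. H2-M2, another non-classical member, had 0.11, 0.43 and 0.04 (limma, adjusted p = 0.394) and turned to -0.27 with normexp and -0.05 with loess added. Before dye normalization H2-Q7 was at 0.05 (limma, adjusted p = 0.875), and it was not called either centred on spike-in probes at -0.47, with normexp at -0.55 or with either fraction above background at -0.62. These were the 2 tested of 5 listed, 1 lower and none higher, with a median of -0.34, beside 20.4% lower among all tested probes, and near-identical copies of H2-Q7 could share its signal.

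Neither tested gene of the list for cell cycle and nuclear genes was called, and their median was 0.14. E2f1, a transcription factor of the entry into S phase, had ratios of 0.16, 0.06 and 0.24 (limma, adjusted p = 0.467), and Nup50, a nuclear pore protein, had 0.19, 0.15 and 0.04 (0.544). All 6 values lay above 0 and within the error of a single gene. Before dye normalization E2f1 was at -0.11, and with normexp Nup50 was at -0.22. Of the 7 genes on that list, 3 had a named probe.

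The remaining named genes lay closer to the median, and the 22 that were not called ran from -0.40 to 0.47. Tm9sf1, a transmembrane 9 superfamily protein, was nearest to a call on the low side with -0.29, -0.33 and -0.58 (limma, adjusted p = 0.0901), though at 0.25 before dye normalization. The olfactory receptor gene Olfr166 was nearest on the high side with 0.33, 0.48 and 0.28 (limma, adjusted p = 0.109), and Olfr1307, of the same superfamily, had 0.39, 0.32 and 0.17. Olfr166 passed before dye normalization at 1.07, with normexp and loess at 0.37 and in 1 fit of all 6 arrays at 0.37. Centred on spike-in probes, which raised the mean ratio of each gene given here, Olfr166 (0.76), Olfr1307 (0.69), H2-M2 (0.59) and Duox1 (0.57) passed. Tm9sf1 passed with both fractions required on all 3 arrays at -0.44, with normexp and loess at -0.34 and in 1 fit of all 6 arrays at -0.40.

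Several of these genes varied widely between arrays. Chgb, the secretory granule protein chromogranin B, had 0.87, -0.11 and 0.06, and without control replicate 1 its mean was -0.02. Cep41, a centrosomal protein, had -0.43, -0.71 and 0.03, and was called with normexp at -0.53. Rab5a, a GTPase of early endosomes, had 0.04, -0.96 and -0.13, and Gsta4, a glutathione transferase, had -0.68, -0.25 and 0.16. In each of these 4 genes the arrays fell on both sides of 0.

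Genes outside the lists that were also not called include Apoe, the lipid carrier, at -0.18, Carhsp1, an RNA-binding cold shock domain protein, at -0.16, and Gamt, an enzyme of creatine synthesis, at -0.14. Bambi, a pseudoreceptor that dampens TGF-beta signalling, was at -0.10. Lhx1, a LIM homeobox transcription factor, was at 0.11, and Hyal3, of the hyaluronidase family, at 0.12. Over the 31 tested genes, Spearman's rho of the mean ratio with the genomic span of the gene was -0.146, given as a description of genes that share the same arrays.

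The other 14 named genes were not tested. For 7 of them, Dnajc11, Atg3, Cpt1a, Spats1, Mzb1, Hspb7 and Mbp, Sup was well above background on all 3 arrays and IP on none. Cpt1a, the carnitine palmitoyltransferase that admits fatty acids to mitochondria, is the listed metabolic gene among them. Averaged over the arrays, their Sup signals did not exceed the lowest IP signal that counted as well above background, so no fold is given. Gabrg1, Il2 and Ppara were not well above background in either fraction. Taf1a and Alkbh4 were seen in Sup on all 3 arrays and in IP on 1, and Tyr and Kcnn2 in Sup on 1 and 2 arrays and in IP on none. Altogether, 17 of the 93 listed genes had a named probe and 14 were tested. Of these 14, 6 were lower in IP and 0 higher, beside 20.4% lower and 15.2% higher among all tested probes. The lists were chosen with earlier results of these data known, and the 3 named genes called higher are on none of them. The count is therefore a description only. Of the 17 listed writers, erasers and readers of m6A, and of the mesangial or fibroblast, endothelial, tubule and immune markers, none had a named probe.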

How the data were processed

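Per the file headers, spot intensity was extracted with Agilent Feature Extraction 11.0.1.1. In the deposited processed signal that software had subtracted background and normalized the dyes within an array, first linearly and then by lowess. The authors' deposited log2 table, used as an alternative, gave ratios that differed by a constant for each array for probes of 1 spot; for probes of several spots the difference was not constant. Outlier spots were dropped and the remaining spots of each probe averaged, which left 1778 tested probes with values on 2 arrays only. Probes of control type were not tested, and 0 spots were saturated.

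The centred ratio was fitted on the 3 control arrays with limma 3.58.1 (lmFit, eBayes) in R 4.3.3, with the data.table package (version 1.17.8) for reading. P-values were adjusted by Benjamini-Hochberg over all tested probes at 0.05. IP and Sup are paired by sharing an array, per the labels; their deviations from the group means within an array correlated at 0.647, 0.730 and 0.481. Precision is limited by the number of arrays. The code of the control fit was run on simulated ratios with independent normal errors and few shifted probes. In the data 35.6% of tested probes were called, so that run checks the code and not the number of calls.

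The alternatives were other filters, centring on 15 spike-in probes or none, signals before dye normalization, normexp with an offset of 50, loess, quantile normalization, the authors' values, medians over spots, array weights, 1 fit of 6 arrays, unpaired channels, and each array left out. The files hold no mean signal, so normexp used median signals. Symbols came from accessions matched to RefSeq names, and 5 catalogue probes had none. Full values were planned for the 8 highest and 8 lowest named genes seen in both fractions on all 3 control arrays and for list members. Rps4l, seen in both on 2 arrays, was added after its values were seen, and so were the other genes outside that rule. The values of 1 tested gene are not reported here. Unnamed probes were limited to 2 in each direction. The members, the 12 lists and the rule were chosen with earlier results of these data known. The files hold no probe sequences and name build mm9 for the layout, so no coordinates are given.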

Additional observations from a re-analysis of the deposited data

How the results depend on the processing

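The count of 8762 control calls was 20437 with no filter on dim probes, 3975 with IP and Sup as separate samples and no replicate block, and 4364 to 8621 with 1 control replicate left out. Centred on the spike-in probes, 22.9% of calls were lower in IP, against 57.3%. The SD and interquartile range of the ratio were 0.90 and 1.104 before dye normalization, 0.59 and 0.61 with normexp, and 0.50 and 0.45 with normexp and loess. The median of catalogue probes less EP3A turned to 0.0088 with both fractions required on all 3 arrays, 0.10 with either fraction and 0.031 before dye normalization.

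Directions turned for some genes, and the cause was not tested. Before dye normalization Gpi1 was at 0.71, Tm9sf1 0.25, Gsdmd 0.045, H2-Q7 0.051 and E2f1 -0.11. With normexp Nup50 was at -0.22, Gpi1 0.051, Chgb -0.14 and H2-M2 -0.27, and with loess added Nup50 -0.013 and H2-M2 -0.047. Centred on spike-in probes Gpi1 was at 0.045, Cep41 0.024 and Lhfp 0.21. With either fraction above background Lhfp was at 0.061. Without 1 control replicate Anxa8 ran from -0.094 to 0.19 and Chgb from -0.024 to 0.46. Of 394 gene values under alternatives, 330 kept direction and side of the threshold, 30 lost the call, 17 gained it and 17 turned. Of the 18 alternatives, 7 ended the call of Acaa2, 7 of Gsdmd, 6 of Trp53rka, 4 of Prdx2, 4 of H2-Q7 and 2 of Actb with the direction kept, the fit without the replicate block among them for each. Cav2 and Uhrf1bp1l kept both under all 18 alternatives run, and Rps4l under the 16 that tested it. Leaving out the dimmest decile, chosen after seeing the data, gave 8867 calls.

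No probe differed between control and knockdown in any alternative run; unadjusted counts ran from 435 without knockdown replicate 3 to 2826 without a filter. Equal replicate numbers do not pair the arrays of the groups: their deviations correlated at 0.006, 0.132 and -0.009, and the replicate block gave 0 calls, 745 unadjusted.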

Other observations

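The catalogue probe A_51_P237746, which has no symbol, was singled out after its values were seen. It was well above background in Sup on all 3 control arrays and in IP on none, although its IP signal was the higher on each array (log2 signals of 4.97, 4.39 and 5.79 in IP and 4.57, 2.88 and 4.60 in Sup). The only unnamed catalogue probe that was tested, A_51_P284125, had ratios of 0.17, -0.81 and -0.56 (mean -0.40; limma, adjusted p = 0.199). Outlier marks were more numerous on control arrays (1454 ± 323 spots) than on knockdown arrays (647 ± 28.6; SD, n = 3), with no overlap and p = 0.1 in the exact permutation test, the smallest it allows.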
